A study of Mus musculus with 2 samples.

Results

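The genes described here are 10 loci that mark fibroblasts or build their matrix: Col1a1, Col1a2, Thy1, Twist1, Vim, Fn1, Postn, Pdgfra, S100a4 and Acta2. Their members are the genomic array features whose start lies in a fixed window of the mm9 genome around each gene, a choice that uses position and no measured value. The windows hold 101 of the 174638 genomic features and touch 13 of the 22170 tiled regions, called tiles below. The study asked how DNA methylation of mouse embryonic fibroblasts (MEFs) differs after thymidine. It has 1 array for each of 2 groups: C57BL/6 MEFs from E14.5 embryos without an added agent, and the same kind of cells in medium with 100 µM thymidine for 2 days. In both groups cells positive for CD45, CD41, CD31 or c-Kit had been removed first, and the rest were seeded on mitomycin-treated MEF feeders. The label of the thymidine sample names a CD45 sort, which the untreated sample's does not. The labels do not say whether feeder DNA was kept apart, and they describe the input of the thymidine array both as MEFs and as treated with thymidine. With 1 array per group no difference has a replicate check, no test was possible, and treatment, sort and array cannot be told apart.

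Methylated DNA immunoprecipitation (MeDIP) pulls down sheared DNA with an antibody against 5-methylcytosine. In mammals that base lies mostly in CG dinucleotides, so a stretch with few CG letters gives little precipitate whether or not it is methylated. Promoters rich in CG are usually unmethylated in most cell types, whereas promoters poor in CG more often follow the state of the cell. Fibroblasts make collagen and fibronectin fibres, carry PDGF receptors and can turn on smooth muscle actin. The value used throughout is log2 of precipitate (Cy5) over input (Cy3), centred so that the median of all kept features on an array is 0. These arrays measure DNA, so they show neither the expression of the genes nor the kind of cell.

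The features were oligonucleotides of 45 to 60 bases at a median spacing of 209 bp, and at all loci but S100a4 they lay near 1 end of the window only. Each window was 6.11 to 7.48 kb longer than its gene in RefSeq (GRCm38.p6), except that of Postn at 4.22 kb, or 6.07 kb when counted from the second RefSeq start of Postn. Such a margin is what a flank of about 3 kb on both sides would leave. At 8 of the genes a single tile sat 1.73 to 4.64 kb inside the nearer edge of the window. Tiles covered 3.19% of the Fn1 window and 3.89% of that of Col1a2, and up to 16.3% in the 9 windows other than that of S100a4. Most of each of those windows was thus not measured. The S100a4 window was 41.6% tiled, in 3 tiles, and RefSeq places S100a3 and S100a5 next to S100a4 on either side. The files name no genes, and which of the 3 tiles belongs to which of those genes is not settled here.

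RefSeq promoter entries matched 7 of the 10 genes, all but Col1a1, Thy1 and Fn1. The 250 bases before the start are shown for 5 of them, which are the genes with the most and the fewest CG, those with the highest and lowest median ratio in untreated cells and the one with the largest median difference. Letters are lower case with each CG in capitals, read 5′ to 3′ on the gene's strand in GRCm38.p6.
Twist1, chr12:33957421-33957670, plus strand: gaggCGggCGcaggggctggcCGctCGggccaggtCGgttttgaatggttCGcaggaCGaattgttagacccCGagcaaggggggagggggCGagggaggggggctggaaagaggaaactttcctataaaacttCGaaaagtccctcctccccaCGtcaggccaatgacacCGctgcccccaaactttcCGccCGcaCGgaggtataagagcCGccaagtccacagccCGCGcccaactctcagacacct
Col1a2, chr6:4505368-4505617, plus strand: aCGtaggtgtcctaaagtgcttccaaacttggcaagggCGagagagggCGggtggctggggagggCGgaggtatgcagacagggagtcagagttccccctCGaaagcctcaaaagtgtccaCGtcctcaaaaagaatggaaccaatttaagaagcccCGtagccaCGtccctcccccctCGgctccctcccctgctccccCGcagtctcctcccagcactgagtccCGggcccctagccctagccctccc
Acta2, chr19:34255374-34255623, minus strand: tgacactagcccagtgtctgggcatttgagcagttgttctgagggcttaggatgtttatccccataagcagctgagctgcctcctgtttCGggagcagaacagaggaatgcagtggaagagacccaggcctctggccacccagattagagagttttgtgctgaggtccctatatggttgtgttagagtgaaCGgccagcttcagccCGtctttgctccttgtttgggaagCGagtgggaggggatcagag
Postn, second start, chr3:54360857-54361106, plus strand: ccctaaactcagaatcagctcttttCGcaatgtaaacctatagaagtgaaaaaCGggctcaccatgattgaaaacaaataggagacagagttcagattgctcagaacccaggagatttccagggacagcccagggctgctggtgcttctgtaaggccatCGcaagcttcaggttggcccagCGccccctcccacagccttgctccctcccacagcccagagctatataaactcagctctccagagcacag
S100a4, chr3:90603520-90603769, plus strand: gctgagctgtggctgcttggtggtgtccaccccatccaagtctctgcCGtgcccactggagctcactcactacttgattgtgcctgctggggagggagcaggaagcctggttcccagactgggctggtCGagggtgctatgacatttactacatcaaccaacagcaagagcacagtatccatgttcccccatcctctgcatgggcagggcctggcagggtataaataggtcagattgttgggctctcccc

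The letters CG, which read the same on both strands, occurred 18 times in the Twist1 sequence, 11 times in that of Col1a2 and 8 times in that of Vim. Acta2, Pdgfra and the second start of Postn had 4 each, the first start of Postn had 3 and S100a4 had 2. Of 32851 RefSeq promoters cut to the same 250 bases, 92.1% held at least 1 CG, with a median of 6 and quartiles of 2 and 16. Twist1 thus lay at the 78.3 percentile of CG count and S100a4 at the 18.8 percentile. The ratios described next did not follow this count in order: Acta2, with 4, had the highest median in untreated cells, and Postn, with 3 or 4 by its start, had the lowest. The sequences come from another build than the array positions, so no feature was placed on them.

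Of the 101 features, 76 were kept. The other 25 had an input signal not well above background, 14 of them on both arrays and 11 on the thymidine array only, and none carried an outlier flag. This is 24.8% of the features left out, against 18.4% over the whole array. The precipitate was well above background on both arrays in 67 of the 76 (88.2%, against 82.8% of all kept features). Across the array 88.4% and 81.7% of features had input well above background in untreated and thymidine cells, and 70.3% and 69.2% had precipitate. Repeated spots of 19 control probes (165 spots) had a median SD of 0.09 and 0.11 log2 units on the 2 arrays, and 0.14 for the difference. This is spot error within an array and not error between cultures.

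At the 10 loci together the ratio sat near the centre of the array. The median over the 76 kept features was 0.06 (SD over features 0.76) in untreated and 0.14 (SD 0.66) in thymidine cells, where all features have 0 by construction. Among kept features, low ratios were fewer than on the array as a whole. In untreated cells 6 features had a ratio of -1 or less, and 5 did in thymidine cells. These were 7.89% and 6.58%, against 15.0% and 11.3% of all kept features. High ratios were as frequent as elsewhere, with 5 and 7 features at 1 or more (6.58% and 9.21%), against 7.17% and 7.60%. These counts are small and moved by over 1.5 times under most other settings. With normexp background correction 0 low features were left on either array. With no filter on dim features, 14 and 11 of the 101 were low. The filter had left out a larger share of the members than of all features, so the lower count holds for kept features only. Of the 6 kept features that were low on either array, 5 had a precipitate not well above background on at least 1 array, so their ratios are limits rather than sizes.

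**Figure D1:**
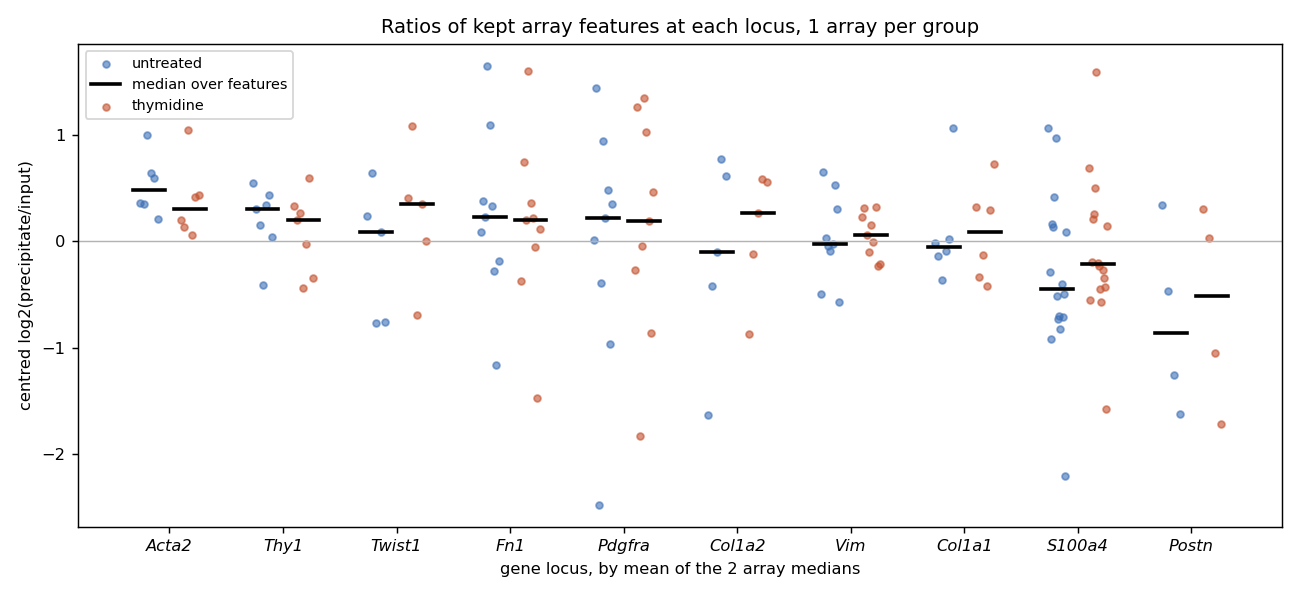
Centred log2 ratio of precipitate to input (vertical axis) of each kept array feature at the 10 loci, untreated in blue and thymidine in orange, with black bars for the median over features. In order of their level over both arrays, medians run from 0.48 and 0.31 at Acta2 to -0.86 and -0.51 at Postn, and the features of neighbouring loci overlap.

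Ordered by the mean of both array medians, the loci ran Acta2, Thy1, Twist1, Fn1, Pdgfra, Col1a2, Vim, Col1a1, S100a4 and Postn. In all 9 neighbouring pairs of this order the medians lay closer together than the smaller SD over features of the pair, on both arrays. That SD is the spread of single features and not the error of a median, so the order is a description. The lower end of the order rests on 4 kept features of Postn. The accounts below go by role, first matrix proteins, then transcription factor and surface proteins, then the proteins of the cytoskeleton and S100a4. Values without further mention are centred log2 ratios.

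Col1a1 and Col1a2 encode the chains of type I collagen, the main fibre of connective tissue. The Col1a1 tile on chromosome 11 from 94796297 to 94797912 had a median of -0.05 (SD 0.50, 6 features) in untreated and 0.08 (SD 0.44) in thymidine cells. Its other kept features lay between -0.42 and 0.32, and its last feature, at 94797868, stood highest at 1.06 and 0.72. The Col1a2 tile on chromosome 6 from 4454399 to 4456069 had -0.10 (SD 0.96, 5 features) and 0.26 (SD 0.60). Its ratio climbed from -1.64 and -0.87 at 4454399, where the precipitate was not well above background, to 0.77 and 0.58 at 4455352. The genes of both chains thus had medians closer together than the spread of their features, on both arrays.

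Fn1 encodes fibronectin, a matrix glycoprotein that cells bind through integrins. Its tile on chromosome 1 from 71698681 to 71701043 had a median of 0.23 (SD 0.81, 9 features) in untreated and 0.20 (SD 0.83) in thymidine cells. The feature at 71699573 had the highest ratio of all kept members on both arrays, 1.65 in untreated and 1.60 in thymidine cells. Further along, at 71700579, the ratio was -1.17 and -1.47 with no precipitate well above background on either array. This rise and fall was present on both arrays, as the plot along the loci shows.

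Postn encodes periostin, a secreted matrix protein of connective tissue under load or repair. Its tile on chromosome 3 from 54163731 to 54165162 had the lowest median of the 10, -0.86 (SD 0.87, 4 features) in untreated and -0.51 (SD 0.94) in thymidine cells. The feature at 54163939 had 0.34 and 0.30, and the ratio was lowest at 54165118, with -1.62 and -1.72. In that feature and in the one at 54164688 the precipitate was not well above background on either array. The feature between them, at 54164888, was measured in both channels and had -1.26 and -1.05. Only 2 of 7 features were measured in both channels. With no filter on dim features the medians were -0.42, still the lowest of the 10, in untreated cells and 0.08 in thymidine cells, where S100a4 (-0.17) and Pdgfra (-0.11) were lower. Under loess S100a4 was the lowest in untreated cells, with -0.37 against -0.28 at Postn.

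Twist1 encodes a basic helix-loop-helix transcription factor of mesenchymal cells. Its tile on chromosome 12 from 34641304 to 34642773 had a median of 0.09 (SD 0.63, 5 features) in untreated and 0.35 (SD 0.65) in thymidine cells. The feature at 34641507 had the highest ratio, 0.64 and 1.08. The next kept feature, at 34641707, had -0.77 and -0.69. DNA fragments of 200 to 1000 bp can span both.

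Thy1 encodes a surface glycoprotein anchored by a lipid, common on fibroblasts. Its tile on chromosome 9 from 43850173 to 43851956 had 0.30 (SD 0.32, 7 features) in untreated and 0.20 (SD 0.37) in thymidine cells. All 7 kept features lay between -0.44 and 0.60, with every precipitate well above background. Pdgfra encodes the alpha receptor for platelet-derived growth factor. Over its 2 tiles the medians were 0.22 (SD 1.15, 9 features) and 0.19 (SD 1.04), the widest spread of the 10 loci. The tile on chromosome 5 from 75547028 to 75548523 held both extremes. The feature at 75547341 had 1.44 and 1.27, and the feature at 75547741, further along, had -2.47 and -1.83 with no precipitate well above background. The tile from 75550911 to 75552517 had medians of 0.29 (SD 0.67, 4 features) and 0.33 (SD 0.79). The first 5 kb of the Pdgfra window minus the rest was -0.27 in untreated and -0.37 in thymidine cells, but 0.19 and 0.28 over features measured in both channels, so the tiles have no settled order.

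**Figure D2:**
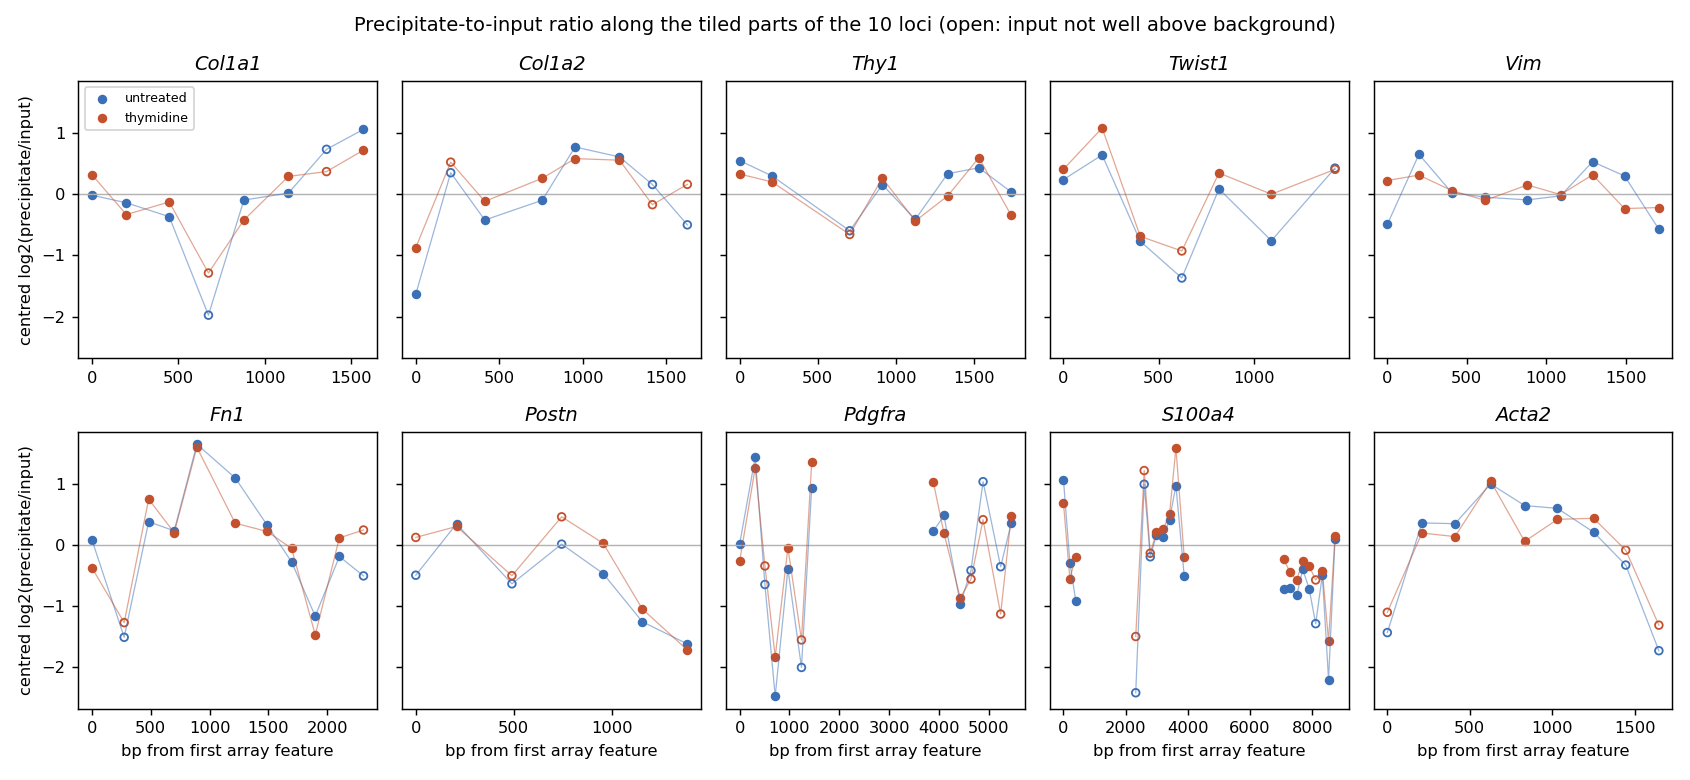
Centred log2 ratio of precipitate to input along each locus, in bp from its first array feature, untreated in blue and thymidine in orange, with open circles where the input was not well above background. The highest and lowest kept features were the same on both arrays: Fn1 peaks at 1.65 and 1.60, and Pdgfra drops to -2.47 and -1.83. Other features differed between the arrays, as at the start of the Vim tile with -0.49 and 0.23.

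Vim encodes vimentin, the intermediate filament protein of mesenchymal cells. Its tile on chromosome 2 from 13494653 to 13496405 had all 9 features kept, and its medians were -0.03 (SD 0.41, 9 features) in untreated and 0.06 (SD 0.21) in thymidine cells. Its ratios lay between -0.57 and 0.65 in untreated and between -0.23 and 0.32 in thymidine cells. Acta2 encodes smooth muscle alpha-actin, a marker of contractile fibroblasts. Its tile on chromosome 19 from 34329364 to 34331070 had the highest median of the 10 in untreated cells, 0.48 (SD 0.28, 6 features), and 0.31 (SD 0.36) in thymidine cells, where Twist1 had 0.35. All 6 kept features were above 0 on both arrays, with a maximum of 0.997 in untreated and 1.04 in thymidine cells at 34329991. The Acta2 medians lay at the 75.8 and 67.2 percentiles of all kept features. Its features left out had dim input on the thymidine array only and were below 0 on both arrays. They had -1.43 and -1.10 at 34329364, -0.33 and -0.09 at 34330810, and -1.73 and -1.31 at 34331011. With no filter on dim features the Acta2 medians were 0.42 in untreated and 0.19 in thymidine cells.

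S100a4 encodes a small calcium-binding protein also known as fibroblast-specific protein. Over the whole window its medians were -0.45 (SD 0.79, 16 features) in untreated and -0.22 (SD 0.69) in thymidine cells. The tiles differed. The middle tile, on chromosome 3 from 90406392 to 90407995, had 0.17 (SD 0.53, 5 features) and 0.26 (SD 0.67), with a peak of 0.97 and 1.59 at 90407684. The tile from 90411146 to 90412843 had -0.71 (SD 0.66, 8 features) and -0.38 (SD 0.50). The first 5 kb of the window minus the rest was 0.86 in untreated and 0.62 in thymidine cells, above 0 under every setting tried, with 0.46 and 0.31 under normexp as the lowest. Since that far tile may belong to the neighbouring S100a5, the low median of the window may not describe the S100a4 start.

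The question of the study, where the ratio differed after thymidine, gave no called member. None of the 76 features differed by 1 or more (2-fold) in either direction, where 1.07% of all kept features were higher and 0.0926% lower by that much. A count of 0 of 76 allows a share of up to 3.95%, so the background share of 1.07% is within reach of this number of features. The largest differences were 0.81 and -0.74. The 25 features left out, which had no such difference either, reached 0.92 in size. The median difference over the members was 0.08 (SD 0.34), beside 0.07 (SD 0.36) over all kept features, and 45 of 76 (59.2%) were higher, beside 57.5% of all.

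**Figure D3:**
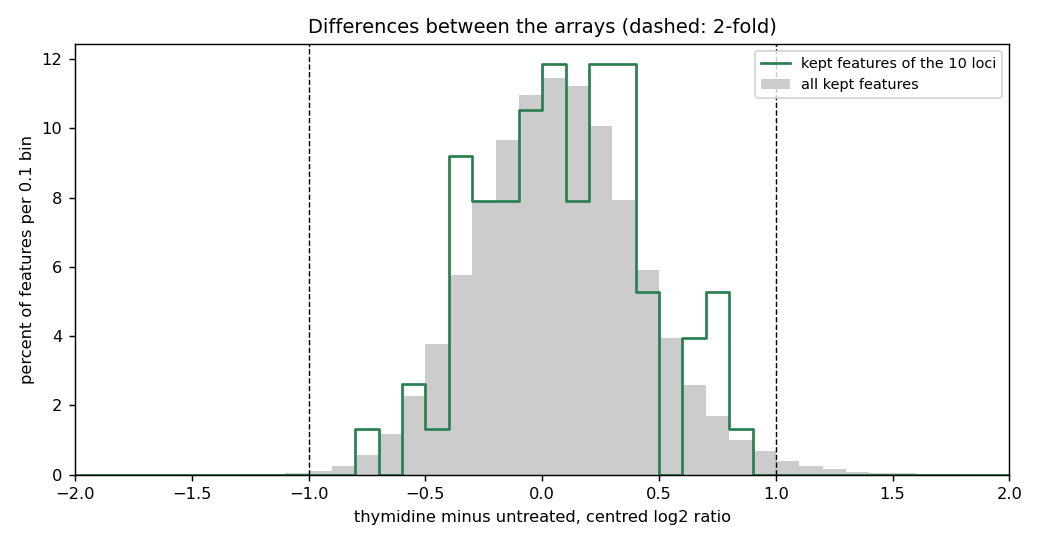
Share of features (percent, vertical axis) per 0.1 bin of the difference thymidine minus untreated in centred log2 ratio, for all kept features (grey) and the 76 kept features of the 10 loci (green line), with dashed lines at 2-fold. The members span -0.74 to 0.81 and lie over the grey distribution, none beyond the dashed lines.

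By locus, the median difference was above 0 at 7 genes and below 0 at 3. Most tiles of the array were above 0 too, so this count does not set the loci apart. Among all tiles the differences of Vim and Col1a1, 0.02 each, lay only at the 39.7 and 40.5 percentiles. At Col1a2 the median difference was 0.31 (SD 0.38 over features), at Twist1 0.26 (SD 0.27) and at S100a4 0.19 (SD 0.31). Higher were 3 of 5 features at Col1a2, 5 of 5 at Twist1 and 14 of 16 at S100a4. Over the Col1a2 features measured in both channels the median was 0.13. The median difference was 0.11 (SD 0.40) at Pdgfra and 0.08 (SD 0.27) at Postn. Col1a1 and Vim had 0.02 each (SD 0.32 and 0.38), with 3 of 6 and 5 of 9 features higher. At Fn1 it was -0.05 (SD 0.37), at Thy1 -0.10 (SD 0.22) and at Acta2 -0.17 (SD 0.27). At all 10 loci this median was smaller than the SD over the locus' own features, and at 4 of them (Col1a2, Twist1, S100a4 and Acta2) it was over the control spot SD of 0.14. The sign was kept under each setting tried at Col1a2 (0.13 to 0.31), Twist1 (0.09 to 0.29), S100a4 (0.03 to 0.21) and Fn1 (-0.10 to -0.03), with the authors' deposited table centred like the other settings. At the other 6 genes it changed under at least 1 setting. At Acta2 the median became 0.02 with no filter on dim features, and at Thy1 it was above 0, at 0.03, in the precipitate channel alone.

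No member tile was called by the region rule, which asks for a median of 0.5 or more in size and one sign in 80% or more of the features. Over the array 0.706% of 21518 tiles were higher and 0.0558% lower by this rule. The highest member tile was the first of Pdgfra at 0.35 (SD 0.40, 5 features). The lowest was the first of S100a4, from 90403237 to 90404508, at -0.25 (SD 0.42) over 7 features, of which only 3 lie in the window. In the authors' deposited table, taken as deposited without centring, the locus differences ran from -0.30 at Acta2 to 0.15 at Twist1, and 7 of the 10 had the same sign as above. Col1a2 had 0.07 there, Thy1 -0.22 and Postn -0.02. With the authors' deposited table centred, the differences ran from -0.24 at Acta2 to 0.20 at Twist1, Postn had 0.03, and only Vim (-0.04) and Pdgfra (-0.02) had the other sign than above.

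A pattern of sign was seen and is given as chosen after the values were seen. Of the 11 member tiles with at least 5 kept features, 3 had every feature higher after thymidine, beside 3.40% of the 18493 such tiles on the array. They were Twist1 (5 of 5 features, median difference 0.26), the middle tile of S100a4 (5 of 5, 0.12) and its far tile (8 of 8, 0.26). The count was 1 after quantile normalisation and 1 with the level trend removed, where 1.25% and 1.17% of all tiles qualified. In the precipitate channel alone it was 0, where 1.22% of all tiles qualified. At these tiles the input was lower in thymidine cells, by medians of -0.07, -0.14 and -0.09. The precipitate was higher there, by medians of 0.09, 0.04 and 0.04. What part either channel has in the pattern was not tested.

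Single features with a difference of at least 0.5 in size numbered 11 of 76, beside 15.4% of all kept features. Of these 8 were higher and 3 lower. The split over all features of that size is not given here, so these counts do not set the members apart. Larger than 2 of the scanner software's own errors were 3 features (3.95%, beside 2.95% of all). The first is at Pdgfra, at 75550911, where the ratio was 0.22 in untreated and 1.03 in thymidine cells, a difference of 0.81 (scanner error 0.34). Its neighbour at 75551125 differed by -0.29. The second is at the start of the Vim tile, at 13494653, with -0.49 and 0.23 (difference 0.72, scanner error 0.33), next to a feature that differed by -0.34. The third is at Fn1, at 71699899, with 1.096 and 0.36 (difference -0.74, scanner error 0.32), next to the peak feature that differed by -0.05. In all 3 the neighbour did not share a difference of that size. Among 48 adjacent kept pairs under 300 bp apart, 25 had differences of the same sign, and the share over the whole array is not given here.

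The difference can come from either channel. In 7 of the 13 tiles the input difference was larger in size than the precipitate difference. The share over all tiles is not given here, so this count does not set the loci apart. Among the 7, the second tile of Pdgfra had nearly equal sizes, -0.0197 in the input and 0.0188 in the precipitate. Of the 11 features with a difference of at least 0.5 in size, 7 had an input difference larger than the precipitate difference (71.2% among all features of that size). In 4 of the 11 the precipitate was not well above background on at least 1 array. It was well above background on both arrays in 7 of the 11, beside 13516 of all 21984 kept features of that size. At the Vim feature the input differed by -0.53 and the precipitate by 0.12. At the Fn1 feature the precipitate differed by -0.50 and the input by 0.31. By tile, the precipitate differed by -0.08 to 0.14 and the input by -0.14 to 0.32. The 0.32 belongs to the first tile of S100a4, where only 3 of 7 features lie in the window. Acta2 had an input difference of 0.23 and a precipitate difference of 0.00, and Thy1 had 0.20 and 0.03. At Col1a2 the precipitate difference was the larger, 0.14 against -0.075 in the input. Whether the unsettled origin of the thymidine array's input has a part in this was not tested.

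**Figure D4:**
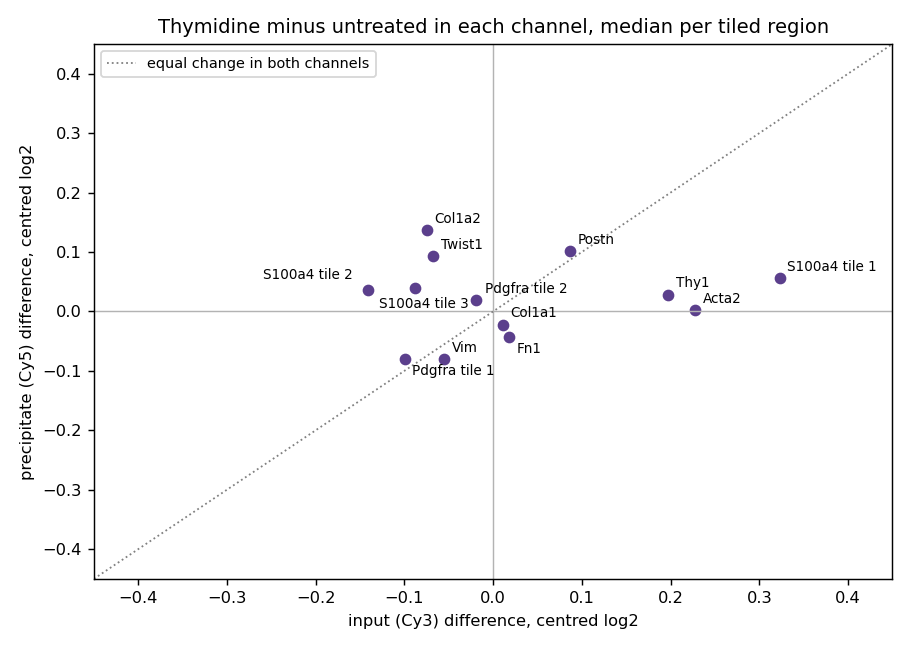
Median difference thymidine minus untreated in the input channel (horizontal axis) and the precipitate channel (vertical axis), in centred log2 units, for the 13 tiles of the 10 genes; the dotted line marks equal differences in both. The input spread runs from -0.14 to 0.32 and the precipitate spread from -0.08 to 0.14. The 0.32 is the first tile of S100a4, with only 3 of 7 features in the window.

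The difference was highest where the ratio was low, among the members and on the whole array. Among the 6 members whose ratio averaged under -1 over both arrays, the difference had a median of 0.42, beside 0.37 for all features at that level. In 5 of these 6 the precipitate was not well above background on at least 1 array. The median of 0.42 thus rests mostly on ratios that are limits rather than sizes. The 6 members between -1 and -0.5 had 0.26 beside 0.15. The 22 members between -0.5 and 0 had 0.18 beside 0.03, and the 27 between 0 and 0.5 had 0.03 beside -0.0050. The 10 members between 0.5 and 1 had -0.12 beside 0.02 (SD over all features 0.29), a class that holds 2 features each of Fn1 and Col1a2. The 5 members at 1 or more had 0.04 beside 0.04, so above a level of 0 there was no steady fall.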

How the data were processed

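Sheared mouse DNA precipitated with an antibody against 5-methylcytosine (Cy5) and its input (Cy3) were hybridised to 1 two-colour Agilent array per group. Per the file headers, Agilent Feature Extraction 11.0.1.1 made the deposited processed signal intensity, with background subtracted and dyes scaled, on a grid of build mm9. The log10 ratio and its error are deposited by the same software, and the log10 ratio equalled that of the processed signals within 1e-06 at 97.4% and 96.9% of features. The authors' deposited table holds log2 ratios, where base 2 was taken from their slope against the scanner values and the remaining steps are not given in the sources. Direction was taken from the dye labels, which are the same on both arrays.

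Kept features were genomic, without outlier flag, and with input well above background on both arrays. The log2 ratio of processed signals was centred on their median, and differences are thymidine minus untreated. Tiles join features whose starts lie under 1000 bp apart, with at least 3 kept. The precision is limited by 1 array per group, so no test was made and SDs are over features. The limit for a count of 0 is 3 counts over the number of features and covers counting only, with neighbouring features not independent.

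The members and lists were chosen with earlier results of these data known. All 10 genes are named, with the highest, lowest or most different features and tiles of each locus, and other named features were chosen after their values were seen. A list of 20 other fibroblast and matrix genes was not analysed, since no table used here places genes on mm9. RefSeq GRCm38.p6 served for promoter letters and gene lengths only.

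Alternatives were no filter, both channels well above background, normexp (offset of 50, on median signals), loess (span of 0.3), the authors' deposited table, quantile scaling, removal of the trend with level, the precipitate alone, regions of at least 5 kept features, and other lengths for the first part of a window. Centring on all features and the count of one-sign tiles were added after seeing the data. Computation used R 4.3.3 with limma 3.58.1 and Python 3.11.15 with pandas 2.3.3. The region rule was tested on simulated data with known shifts.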

Additional observations from a re-analysis of the deposited data

How the results depend on the processing

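No member feature reached a difference of 1, and no member tile was called, under any setting run. The median difference over the members stayed between 0.02 and 0.10. Of 90 locus differences under the alternatives, 0 reached 0.5 in size, and of 210 locus values 51 moved by the control spot SD or more. The counts of low and high features did move. They are out of 101 member features with no filter, 67 with both channels well above background and 76 otherwise. Shares over all features under these settings are not given here, so the counts do not set the members against the array. With no filter on dim features there were 14 features at -1 or less in untreated and 11 in thymidine cells, and 10 at 1 or more in untreated cells. With both channels well above background these were 2, 2 and 2, and 4 were at 1 or more in thymidine cells. Under normexp no feature (0 on each array) was at -1 or less and 2 on each array were at 1 or more. Under loess 2 were at -1 or less in thymidine and 3 at 1 or more in untreated cells. In the table deposited by the authors, 0 and 1 were at -1 or less, and 1 and 0 at 1 or more, in untreated and thymidine cells. Centred on all features, 8 were at 1 or more in untreated cells. Tiles with every feature higher fell from 3 to 1 under quantile scaling and to 1 with the trend removed. The cause of these shifts was not tested. No paired analysis was possible because each group has 1 array. The precipitate signal was only 5.94 times background in untreated cells and less in thymidine cells, which limits how well low ratios are measured.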
